A study of Danio rerio with 2 samples.

Results

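The heme synthesis and iron uptake genes followed here were 9 of the 25743 genes in the zebrafish count matrices, and alas2, alad, urod, cpox, fech, slc25a37, tfr1a and soul3 are described by name. They were chosen by name for their place in heme production, with earlier results of these data known. All 9 had counts in both libraries. Heme is built by a chain of enzymes that starts and ends in the mitochondrion: Alas2, the red-cell form of aminolevulinate synthase, makes the first precursor, Alad, Uros and Urod are among those that work in the cytosol, Cpox and Ppox work at the mitochondrion, and ferrochelatase (Fech) inserts the iron. Iron reaches a red cell precursor through the transferrin receptor (Tfr1a) and crosses into the mitochondrion through mitoferrin 1 (Slc25a37), and soul3 encodes a protein of the heme-binding SOUL family. Zebrafish mutants of alas2, urod, fech, tfr1a and slc25a37 are known for pale or light-sensitive blood.

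GFP-positive cells were sorted from pooled zebrafish embryos at the 20-somite stage and profiled as 3' single-cell RNA on the 10x Chromium system. All embryos carried etv2ci32Gt, a gal4 insertion in the coding sequence of etv2 (an ETS factor required for vascular development), together with UAS:GFP, so that GFP marked cells that had used the etv2 locus. One library came from embryos homozygous for the insertion, in which both copies of etv2 were interrupted, and 1 library came from heterozygous embryos, which kept an intact copy. With 1 library per genotype there was no replicate and no test, and all intervals below are 95% intervals that cover counting error only. UMIs are molecules tagged by a molecular barcode, and levels are given as UMI counts per 1000000 counts (CPM), summed over the cells of a group.

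The homozygous library held 473 kept cells with a median of 13079 UMIs, and the heterozygous library held 1608 kept cells with a median of 10036.5 UMIs. A kept cell had at least 2500 UMIs, 201 to 3500 genes, and no more than 5% of its counts from the mitochondrial genome. The limits on genes and mitochondrial counts alone left 588 and 2049 barcodes, and no barcode of a kept cell was shared between the libraries. The targeted gene etv2 had 95 counts in homozygous cells and 4908 in heterozygous cells, a ratio of CPM of 0.0522 (0.0421 to 0.0639). Clustering without the 9 genes and without hemoglobin genes gave 13 clusters. They fell into 10 classes named from lists of marker genes and 2 clusters, unnamed 1 and unnamed 4, that matched none of those lists. Among the classes were endothelial progenitors (EPC) and lateral plate mesoderm (LPM). The labels call the sorted cells endothelial, whereas 2 homozygous and 305 heterozygous cells were endothelial-like. EPC-like cells numbered 3 and 225. The etv2 ratio above runs over all kept cells and so compares unlike mixes of classes, and the part of that makeup was not tested.

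Erythroid-like cells, 123 homozygous (26.0% of the library) and 252 heterozygous (15.7%), carried all 16 erythroid markers at 2-fold or more over the other cells. gata1a, the erythroid master regulator, stood at 300.4 CPM in homozygous and 224 CPM in heterozygous erythroid-like cells. The 15 hemoglobin genes together took 4.80% of the counts of homozygous and 3.41% of those of heterozygous erythroid-like cells, against 0.0469% and 0.0504% in the other named classes.

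The heme synthesis enzymes marked the erythroid-like cells in both genotypes. Of the 9 genes, 8 had at least 50 counts in each library, and 7 of them, with alas2, alad, urod, cpox, fech and slc25a37 among them, stood at 2-fold or more over all other cells in the homozygous library, where 9.18% of all 5797 genes with as many counts did so. The same 7 passed 2-fold in the heterozygous library, where 8.87% of 8629 genes did. soul3 did not pass in either library, and tfr1a had too few counts to enter. The median ratio of the 8 genes was 5.87 in the homozygous and 8.17 in the heterozygous library, beside medians of 0.987 and 0.932 over all genes tested.

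Alas2, the entry point of the pathway, was read at 416 CPM (389 to 444) in homozygous erythroid-like cells, with 886 counts in 123 cells, and at 88.3 CPM in all other homozygous cells. In the heterozygous library it stood at 270.3 CPM (253 to 288), with 918 counts in 252 cells, against 33.0 CPM in the other cells. The ratio of erythroid-like to other cells was 4.71 (4.17 to 5.34) in homozygous and 8.19 (7.31 to 9.19) in heterozygous embryos. Its counts outside the erythroid-like class lay mostly in the unnamed clusters, which held 25.1% and 24.0% of all alas2 counts of the homozygous and heterozygous libraries. Without those clusters the ratio was 22.3 (16.9 to 30.1) in homozygous and 24.0 (19.8 to 29.3) in heterozygous embryos, an alternative chosen once the values were known.

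The cytosolic enzymes were erythroid-enriched as well. Alad, which joins aminolevulinate into porphobilinogen, had 39.0 CPM in homozygous erythroid-like against 8.44 CPM in other homozygous cells, and 35.9 against 6.73 CPM in the heterozygous library. Urod, the decarboxylase that acts later in the cytosol, had 42.2 against 7.48 CPM in the homozygous library and 25.9 against 8.29 CPM in the heterozygous library. Of its counts, 74.4% of the homozygous and 44.0% of the heterozygous ones came from erythroid-like cells. Those cells held 2130756 of 6277215 homozygous and 3396489 of 16913592 heterozygous UMIs of kept cells, so the 2 shares have unlike baselines.

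The mitochondrial steps showed the same erythroid pattern. Cpox, coproporphyrinogen oxidase, had 2585 counts in homozygous erythroid-like cells (1213 CPM, 1167 to 1261) and 3780 in heterozygous ones (1113 CPM, 1078 to 1149), against 199 and 116 CPM in the other cells. It was seen in 122 of 123 homozygous and 243 of 252 heterozygous erythroid-like cells. Its ratio was 6.08 (5.62 to 6.59) in homozygous and 9.63 (9.08 to 10.2) in heterozygous embryos, and 55.6 and 29.2 without the unnamed clusters. Fech, which closes the pathway, had 52.6 against 7.24 CPM in the homozygous library and 30.9 against 3.11 CPM in the heterozygous library.

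The iron supply genes were read at low depth. Slc25a37, mitoferrin 1, had 53 counts in homozygous and 45 in heterozygous erythroid-like cells (24.9 and 13.2 CPM), and 5 and 22 counts in all other cells. No homozygous cell of a named class other than erythroid-like held an slc25a37 count, and those classes had no tfr1a count either, which allows up to 1.32 CPM of each by the exact interval. Tfr1a had 25 counts in 20 homozygous and 12 counts in 11 heterozygous erythroid-like cells. Its paralog tfr1b, which is not a member, had 32 and 40 counts there, and reads shared between such copies cannot be placed from summed counts. Soul3 differed from the other members in its spread over classes: 46.7% of its homozygous and 14.0% of its heterozygous counts were in erythroid-like cells, at ratios over other cells of 1.71 (1.17 to 2.47) and 0.649 (0.349 to 1.13).

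**Figure D1:**
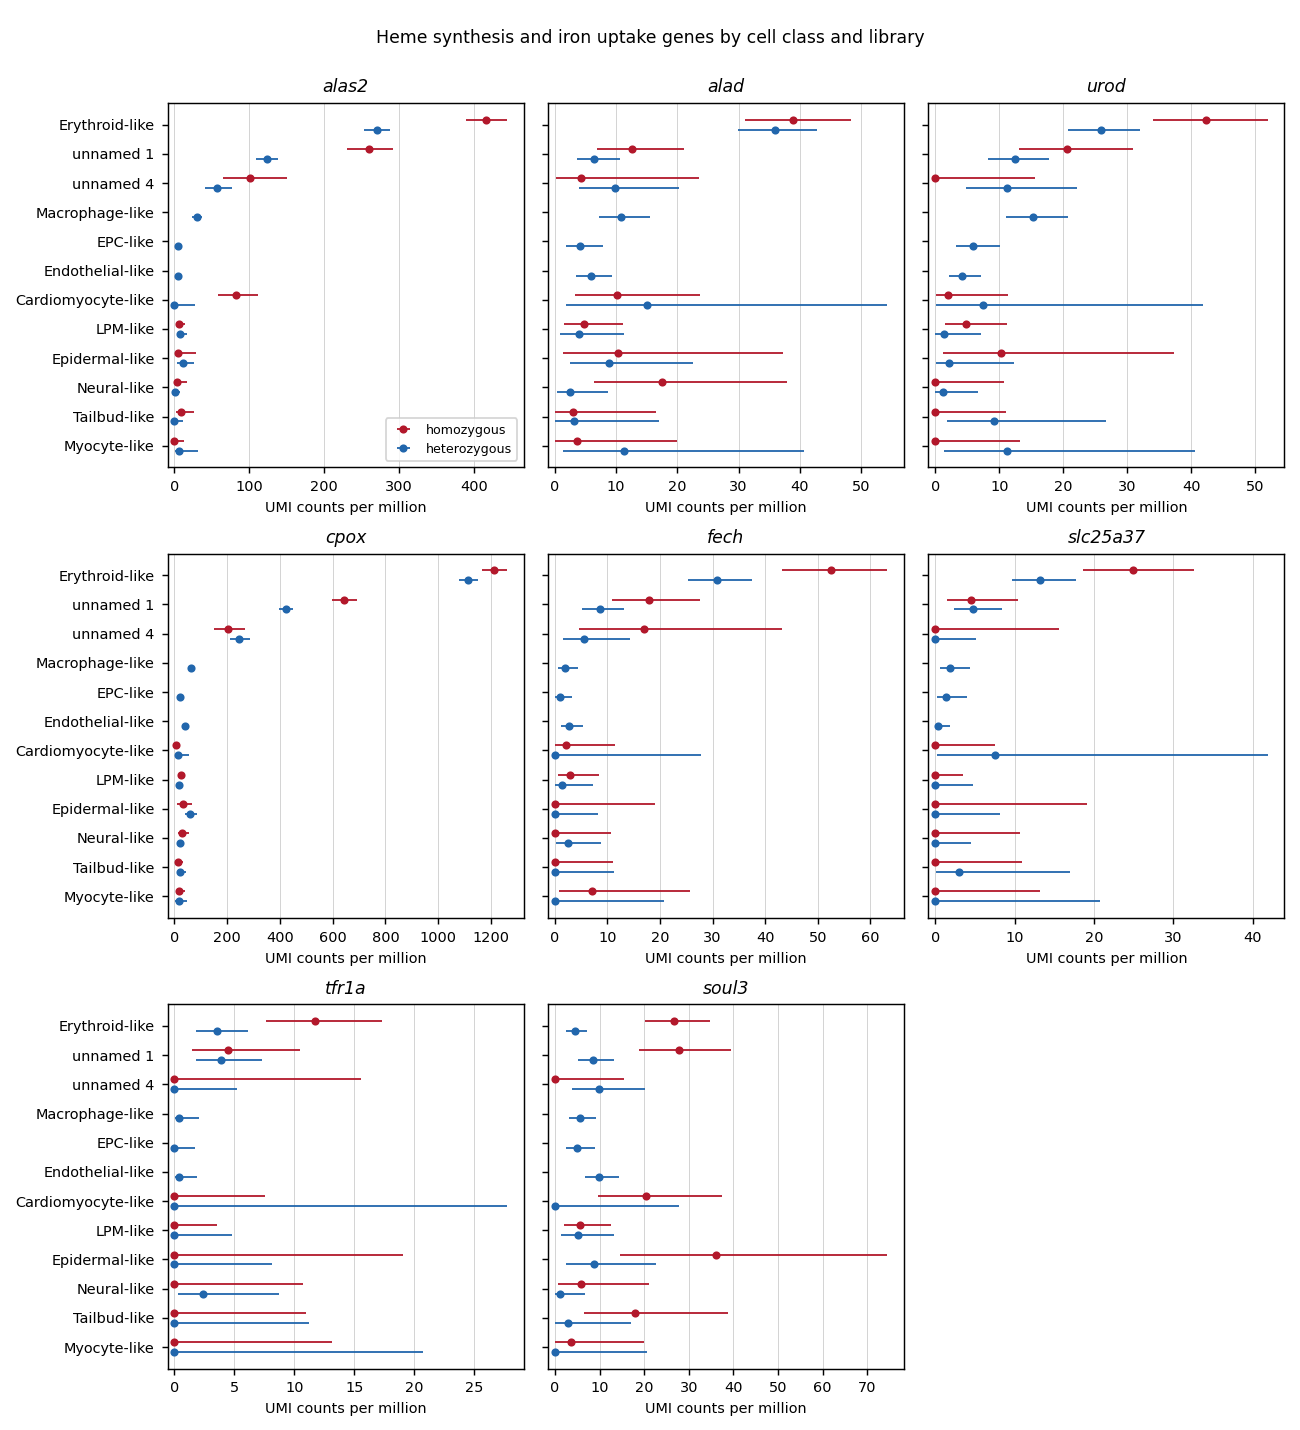
UMI counts per 1000000 of 8 of the 9 genes (x axis, linear, a scale per panel) in each class with at least 20 cells (y axis), for the homozygous (red, upper) and heterozygous (blue, lower) library, with exact 95% Poisson intervals. For alas2, erythroid-like cells lie at 416 and 270.3 CPM, unnamed 1 at 259.8 and 123 CPM, and homozygous cardiomyocyte-like cells at 81.5 CPM. The alas2 counts of that last group lie in cells named EPC-like when the homozygous library was clustered on its own. Soul3 shows no erythroid peak in either library. Its homozygous levels were 26.8 CPM in erythroid-like, 27.8 CPM in unnamed 1 and 36.2 CPM in epidermal-like cells.

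At equal depth, with each cell thinned to 5000 UMIs, the genes were seen together in single erythroid-like cells. A median of 3 of the 9 was detected per cell in both libraries, with 3 or more in 75.0% of 116 homozygous and 50.4% of 230 heterozygous cells. In neural-like cells, which should lack the red-cell program, the median was 0, with no cell of 23 homozygous and 69 heterozygous having 3 or more. In unnamed 1 the median was 2 over 50 homozygous and 1 over 126 heterozygous cells, with 3 or more in 34.0% and 11.1%. Heterozygous macrophage-like and unnamed 4 cells had a median of 1, with 3 or more in 1.46% of 206 and 7.55% of 53 cells. Alas2 was detected in 82.8% of thinned homozygous and 60.0% of thinned heterozygous erythroid-like cells (93.5% and 78.2% before thinning), against 1 of 23 and 1 of 69 thinned neural-like cells (1 of 23 and 1 of 81 before thinning). Median depths before thinning were 18269 and 14413 UMIs in erythroid-like and 15126 and 10142 UMIs in neural-like cells. Thinning left out 7 homozygous and 22 heterozygous erythroid-like cells.

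Summed over the other named classes, alas2 and cpox were among the members that exceeded the amount free RNA would give. That amount took all hemoglobin counts of those classes as free RNA. The ratio of a gene to hemoglobin was taken from near-empty droplets or from erythroid-like cells. In homozygous cells of those classes alas2 had 52 counts where such RNA would give 10.5 to 11.4, and in heterozygous cells 118 counts where it would give 24.5 to 41.8. Of the 52 homozygous counts, 40 lay in 17 of the 63 cardiomyocyte-like cells, a class where free RNA would give 1.89 to 2.04. All 17 were EPC-like when the homozygous library was clustered on its own. LPM-like cells held 7, beside 3.93 to 4.25 from free RNA, tailbud-like cells 3, and neural-like and epidermal-like cells 1 each, too few to set apart from free RNA. For cpox there were 61 homozygous counts beside 27.9 to 33.1 and 399 heterozygous counts beside 122 to 172. Summed in the same way, alad, urod, fech and soul3 also exceeded the free RNA amount in both libraries. Alad had 20 homozygous counts beside 0.833 to 1.06 and 69 heterozygous counts beside 5.55 to 8.28. Soul3 had 65 heterozygous counts beside 0.682 to 2.41. Slc25a37 and tfr1a had no homozygous count in these classes. In heterozygous cells slc25a37 had 11 counts there beside 1.72 to 2.05 from free RNA, and tfr1a 4 beside 0.546 to 0.690. The heterozygous macrophage-like cells, 228 in number, held 80 of the alas2 counts in 56 cells (29.9 CPM, 23.7 to 37.2), where free RNA would give 5.59 to 9.53. Their cpox level was 63.2 CPM (54.0 to 73.5). EPC-like heterozygous cells had 10 alas2 counts (4.57 CPM), 5 of them in 1 cell, where free RNA would give 5.60 to 9.55 counts. Endothelial-like heterozygous cells had 15 counts (5.15 CPM), above the 6.31 to 10.8 that free RNA would give. Whether the endothelial-like level exceeds background was not tested, and the EPC-like level is read as about background. For EPC-like cells that reading includes 1 cell with 3.17% hemoglobin counts, beside a class median of 0.0318%, which raises the free RNA amount. The homozygous library held 3 macrophage-like, 3 EPC-like and 2 endothelial-like cells, too few to give a level.

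Among classes of at least 20 cells, the cluster called unnamed 1 came second for alas2, at 259.8 CPM in its 53 homozygous and 123 CPM in its 198 heterozygous cells, and second for cpox at 643 and 423 CPM. No class matched it by markers, since 1 of 10 tailbud markers was its best score. Cells with at least 1% hemoglobin counts were 16 of these 53 and 7 of these 198. Among the cells of unnamed 1 under that limit, alas2 stood at 239.8 CPM in homozygous and 113 CPM in heterozygous cells. Hemoglobin took 0.467% and 0.347% of the counts of these cells, beside 0.0469% and 0.0504% in the named classes other than erythroid-like. Median depth in this cluster was 22400 UMIs in homozygous and 9290 UMIs in heterozygous cells, and the part of depth was not tested.

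The other genes of heme production were read from 5 lists of 60 genes, of which 51 were in the files. In the homozygous library 14 of 24 list genes with at least 50 counts stood at 2-fold or more in erythroid-like cells, and in the heterozygous library 16 of 35 did. By list these were 3 of 4 and 3 of 4 other enzymes (median ratios 4.85 and 5.31), 5 of 8 and 6 of 11 genes of mitochondrial transport and regulation (2.90 and 2.36), and 4 of 5 and 3 of 9 genes of iron uptake, export and storage (2.27 and 1.32). Iron-sulfur assembly had 1 of 4 and 2 of 5 (1.47 and 1.85), and heme binding, export and breakdown 1 of 3 and 2 of 6 (0.973 and 0.952). Of the other enzymes, uros had ratios of 4.23 and 5.59 and ppox 7.22 and 8.44 in homozygous and heterozygous embryos. Alas1, the housekeeping aminolevulinate synthase, went the other way from alas2, at 0.436 (0.219 to 0.805) and 0.639 (0.443 to 0.898). Among mitochondrial transporters, tmem14ca, a porphyrin carrier required for heme in zebrafish and mouse, had ratios of 9.35 and 11.8, and abcb10, the partner that stabilises mitoferrin 1 in mouse, 9.13 and 13.3. Blvrb, biliverdin reductase B, had 6.38 and 11.9. The ferritin gene fth1a and the iron transporter slc11a2 showed ratios of 2.27 and 2.07 and of 3.18 and 2.74. Glrx5, needed for iron-sulfur cluster assembly, had 2.80 and 3.95.

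**Figure D2:**
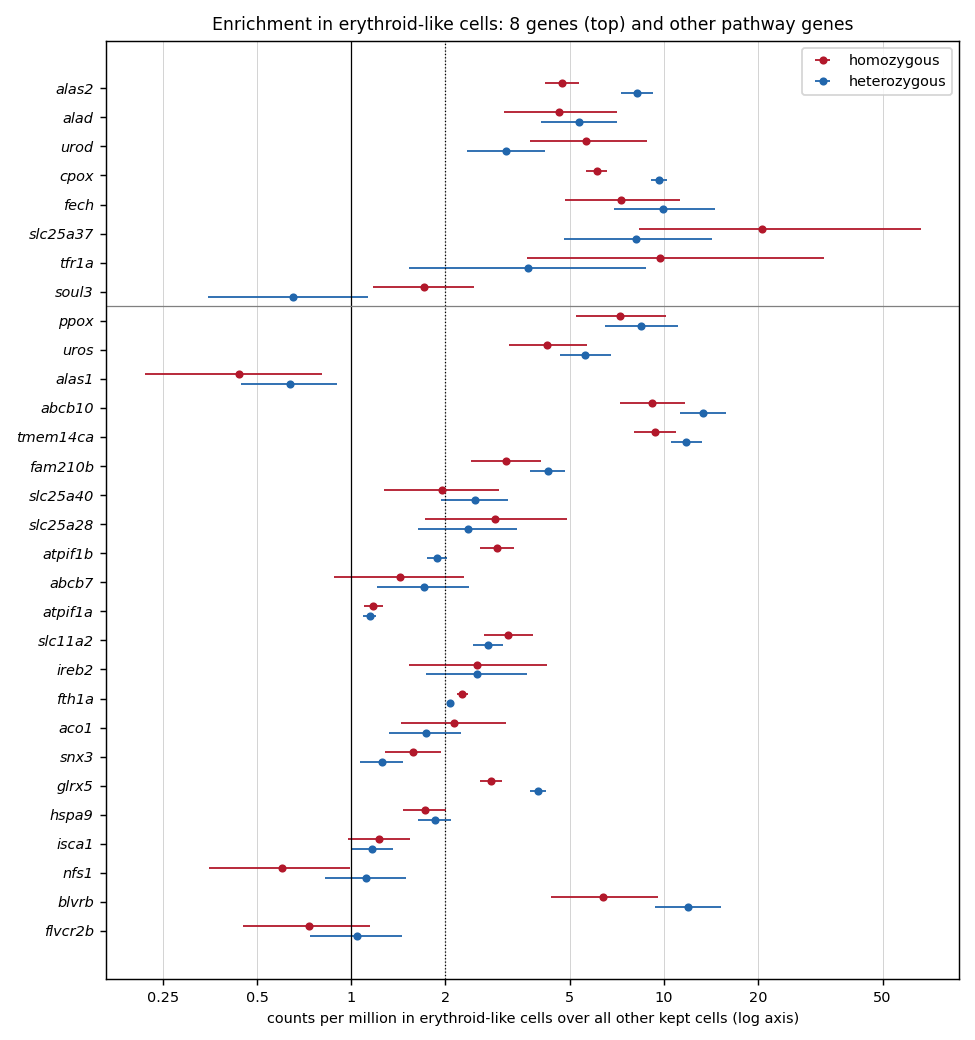
CPM in erythroid-like cells over all other kept cells (x axis, log scale) for 8 of the 9 genes above the grey line and below it for those other pathway genes reported here that had at least 50 counts in both libraries, homozygous in red (upper) and heterozygous in blue (lower), with exact 95% counting intervals and a dotted line at 2-fold. Alas2 lies at 4.71 and 8.19, whereas alas1 lies at 0.436 and 0.639 and soul3 at 1.71 and 0.649.

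Over the 21 groups of class and library with at least 20 cells, the 3 genes whose log2(CPM + 10) ran most like that of a member were listed, and hbbe2, nt5c2l1, hbae3, hbbe1.1 and slc4a1a among them also served as erythroid markers here. For alas2 they were the embryonic globin hbbe2 (Pearson r = 0.934), nt5c2l1 (0.934) and smchd1 (0.932). Cpox ran most like rfesd (0.969), susd1 (0.965) and gfi1aa (0.964). Fech ran most like hbae3 (0.924), nt5c2l1 (0.923) and hbbe1.1 (0.919). For alad the closest were fth1a (0.839), slc4a1a (0.802), the red-cell anion exchanger, and mtch2 (0.792). These r describe 21 points that share 2 libraries and differ in depth, among 5666 genes compared.

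Within the erythroid-like class, cells were ordered by their hemoglobin share and divided over both libraries into 3 bins of like size. The low, middle and high bins held 18, 48 and 57 homozygous cells and 107, 77 and 68 heterozygous cells, so that 46.3% of homozygous and 27.0% of heterozygous erythroid-like cells lay in the high bin. Of the 6 members with at least 50 counts in the high and low bins together, 5 stood at 1.5-fold or more in the high bin of homozygous cells, with alad, urod, cpox and fech among them, where 12.8% of 2108 genes did, and all 6, alas2 included, did in heterozygous cells, where 6.91% of 3096 genes did. The median ratio of the 6 was 2.52 in homozygous and 3.45 in heterozygous cells, beside 0.983 and 0.922 over all genes tested.

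Fech and alad followed the hemoglobin share in both genotypes. Fech stood at 23.0, 38.9 and 69.1 CPM in the low, middle and high bin of homozygous cells and at 10.2, 34.1 and 49.9 CPM in those of heterozygous cells, with high over low ratios of 3.01 (1.32 to 8.45) and 4.92 (2.60 to 10.1). Alad was read once in the 18 homozygous cells of the low bin and stood at 31.1 and 52.8 CPM in the middle and high bins. In heterozygous cells it had 15.2, 40.4 and 53.6 CPM, a high over low ratio of 3.52 (2.05 to 6.34).

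Cpox was read in all bins and was higher with the hemoglobin share. It stood at 866, 1129 and 1355 CPM over the homozygous and at 784, 1177 and 1401 CPM over the heterozygous bins, with high over low ratios of 1.56 (1.36 to 1.81) and 1.79 (1.65 to 1.94). Over the 5 finer bins shown in the plot of levels against hemoglobin share, it lay between 740.97 and 1375 CPM in homozygous and between 602 and 1440 CPM in heterozygous cells. Urod had 26.8, 29.8 and 54.6 CPM over the homozygous and 10.2, 29.6 and 39.0 CPM over the heterozygous bins. Its homozygous ratio of 2.03 has an interval (0.929 to 5.28) that includes 1.

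Alas2 was also higher with the hemoglobin share, and whether it was past the 1.5-fold line in homozygous cells depended on the processing. In heterozygous cells it stood at 146, 274 and 400.5 CPM in the low, middle and high bins, a ratio of high over low of 2.75 (2.303 to 3.302). In homozygous cells it stood at 337, 372 and 465 CPM, a ratio of 1.38 (1.097 to 1.75). Thinned to 5000 UMIs the homozygous ratio was 1.79 (1.14 to 2.95) and the heterozygous one 2.96 (2.19 to 4.03), and the homozygous ratio was also past 1.5 with each library clustered on its own (1.52), without the cell with the most alas2 counts (1.51) and with the share taken from alpha hemoglobin genes (1.54). In thinned single cells the rank correlation of alas2 with the hemoglobin share was 0.362 over 116 homozygous and 0.407 over 230 heterozygous cells, each set from 1 library. In 5 finer bins of the hemoglobin share, alas2 stood at 340.4, 347, 373, 372 and 516 CPM in homozygous cells and at 118, 184, 309, 326 and 429 CPM in heterozygous cells. The lowest of these bins held 11 homozygous and 64 heterozygous cells. The difference between the courses was not tested, since there is 1 library per genotype.

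**Figure D3:**
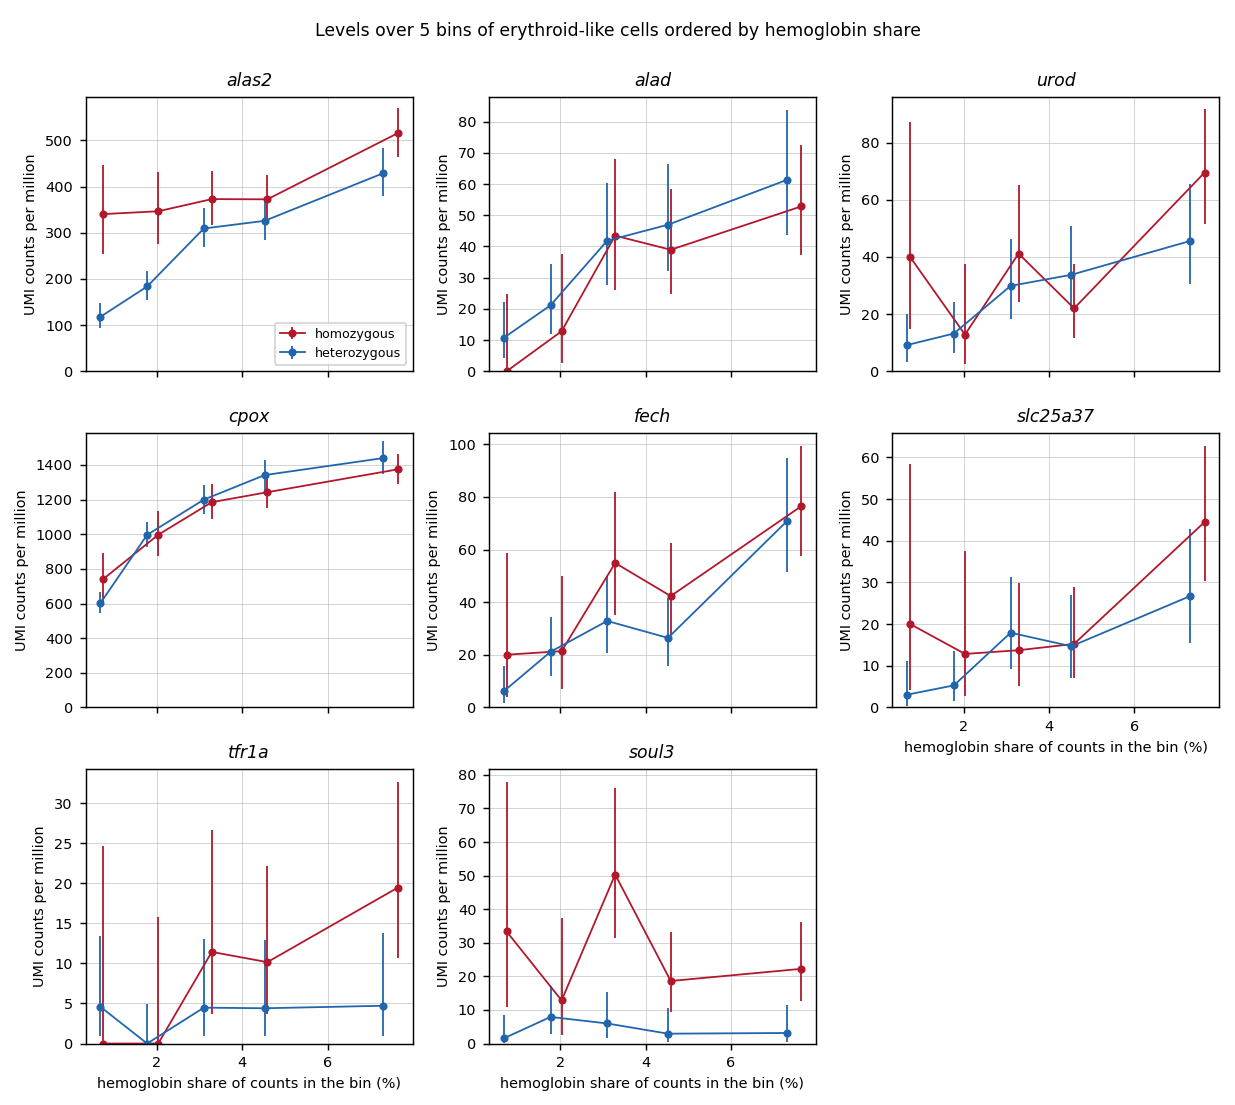
Level of 8 of the 9 genes (y axis, UMI counts per 1000000, from 0) against the hemoglobin share of counts (x axis, percent) in 5 equal bins of erythroid-like cells taken over both libraries, homozygous in red and heterozygous in blue, with exact 95% Poisson intervals. The cpox lines of the 2 genotypes run together, whereas alas2 begins at 340.4 CPM in homozygous and 118 CPM in heterozygous cells.

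Slc25a37 had 4, 13 and 36 counts over the homozygous bins and 5, 16 and 24 over the heterozygous bins, and tfr1a had 0, 6 and 19 homozygous and 3, 4 and 5 heterozygous counts. For both genes the counts were under the 50 needed to be called. The exact interval of the high over low ratio of tfr1a in homozygous cells began at 1.11, with 0 counts in the low bin. Soul3 stood at 26.8, 29.8 and 24.6 CPM over homozygous and 4.23, 6.29 and 2.72 CPM over heterozygous bins, with ratios of 0.915 (0.389 to 2.49) and 0.644 (0.100 to 3.31).

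Depth and other cells' markers moved along the same order. Median UMIs were 14906.5, 17859 and 20075 in the low, middle and high homozygous bins and 11278, 14570 and 18122 in the heterozygous ones. The 10 macrophage markers summed to 690.1, 420.3 and 273 CPM over the homozygous bins, with 4, 6 and 7 of them seen, and to 605, 436 and 276 CPM over the heterozygous bins, with all 10 seen in each. Single cells ranged from 0 to 1507 CPM in the homozygous and from 0 to 3636 CPM in the heterozygous low bin. Most of these counts were cebpa and spi1b, and cxcr3.2, il6r and si:zfos-741a10.3 had no count in homozygous erythroid-like cells. The 10 tailbud markers summed to 675, 407 and 229 CPM over the homozygous and to 632, 437 and 229 CPM over the heterozygous bins. The 14 endothelial markers had 291, 180.3 and 156 CPM and 607, 282 and 222 CPM, and the 12 LPM markers 575, 329.5 and 300.2 CPM and 226, 131 and 105 CPM. The 9 EPC markers showed no such order, at 1097, 884 and 1018 CPM and at 1612, 1318 and 1620.05 CPM. With each cell thinned to one depth, 3 members in each library stood at 1.5-fold or more with at least 50 counts, and in homozygous cells these were not all among the 5, since alas2 entered and alad, urod and fech fell under the count limit. The part of the markers was not tested.

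Of the pathway lists, 8 of 15 tested genes in homozygous and 11 of 17 in heterozygous cells stood at 1.5-fold or more in the high bin, beside 12.8% and 6.91% of all genes. None of the list genes was lower by 1.5-fold, beside 11.5% and 16.7% of all genes. Tmem14ca gave ratios of 5.95 (4.08 to 9.02) and 4.58 (3.84 to 5.51), uros 4.03 and 2.64, ppox 1.92 and 2.48, abcb10 2.16 and 2.10, blvrb 3.52 and 4.37, and fth1a 1.72 and 1.96. Fam210b, a mitochondrial protein tied to iron import in erythroid cells, had 1.01 (0.620 to 1.70) in homozygous and 2.13 (1.70 to 2.68) in heterozygous cells.

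Between the genotypes, 5 of the 8 members with at least 50 counts in erythroid-like cells of both libraries together were 1.5-fold or more higher in homozygous than in heterozygous cells, and none was lower by that much. Of all 4952 genes tested, 5.51% were higher and 9.92% were lower by 1.5-fold. The median ratio was 1.58 over the 8 members and 0.945 over all genes. The 5 were alas2, urod, fech, slc25a37 and soul3. Homozygous erythroid-like cells also lay higher on the hemoglobin order, and hemoglobin itself was 1.41 times the heterozygous level. Within the bins the hemoglobin ratio was 1.07 to 1.08.

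Alas2 was 1.54 times as high (1.40 to 1.69) in homozygous as in heterozygous erythroid-like cells. By bins the ratio was 2.32 (1.77 to 3.02) in the low bin, 1.36 (1.15 to 1.60) in the middle bin and 1.16 (1.02 to 1.32) in the high bin. Alas2 was thus past 1.5-fold in the low bin alone, which held 18 of the 123 homozygous cells. In the low bin 15 of 18 homozygous and 62 of 107 heterozygous cells had an alas2 UMI. There the cell with the most alas2 held 14 of 88 homozygous counts and 9 of 172 heterozygous counts. With all cells thinned to 5000 UMIs the low bin ratio was 1.96 (1.15 to 3.21), at 22 counts in 16 homozygous and 66 counts in 94 heterozygous cells. Without the low bin, a check added once the values were known, the ratio over the remaining cells was 1.27 (1.14 to 1.40), so that alas2 no longer passed 1.5-fold. With the heterozygous levels reweighted to the homozygous share of each bin it was 1.29.

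Cpox, the best counted member, was within 1.5-fold between genotypes in every bin. Its ratio was 1.09 (1.04 to 1.15) over all erythroid-like cells, and 1.105 (0.951 to 1.28), 0.959 (0.879 to 1.05) and 0.967 (0.900 to 1.04) in the low, middle and high bin. Counted against each other within the same cells, there were 38.9 alas2 counts per 100 cpox counts in homozygous and 18.6 in heterozygous cells of the low bin, an odds ratio of 2.10 (1.54 to 2.84). The values were 33.0 and 23.3 in the middle bin, with an odds ratio of 1.42 (1.18 to 1.71), and 34.3 and 28.6 in the high bin, with 1.201 (1.03 to 1.39). Alad had 1.08 (0.810 to 1.45) over all cells.

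Urod was 1.63 times (1.202 to 2.21) as high in homozygous as in heterozygous cells, on 90 and 88 counts. Fech was 1.70 times (1.29 to 2.24) as high, on 112 and 105 counts, and slc25a37 1.88 times (1.24 to 2.86), on 53 and 45 counts. Without the low bin they stood at 1.29 (0.936 to 1.79), 1.35 (1.01 to 1.80) and 1.45 (0.936 to 2.26). For slc25a37 the direction turned after thinning, at 0.583 (0.168 to 1.65), where 5 homozygous and 17 heterozygous cells held a count. Tfr1a, with 25 homozygous and 12 heterozygous counts, had 3.32 (1.61 to 7.25) and was under the count limit.

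Soul3 gave the widest difference between genotypes among the called members. It had 57 counts in 35 of 123 homozygous and 15 counts in 15 of 252 heterozygous erythroid-like cells (26.8 and 4.42 CPM), a ratio of 6.06 (3.38 to 11.5). The ratio was 6.34 (1.73 to 25.4), 4.75 (1.97 to 13.1) and 9.02 (2.77 to 46.4) in the low, middle and high bin, and 5.92 (2.97 to 13.1) without the low bin. It was the 1 member with at least 50 counts that stayed past 1.5-fold in that setting, where tfr1a was under the count limit. Summed over all cells outside the erythroid-like class, whose makeup differs between the libraries, soul3 stood at 15.7 CPM in homozygous and 6.81 CPM in heterozygous cells, a ratio of 2.303 (1.65 to 3.199). Of its 65 homozygous counts there, 31 lay in unnamed 1 (27.8 CPM, against 8.56 CPM in heterozygous cells). Epidermal-like, tailbud-like and cardiomyocyte-like cells had 7, 6 and 10 homozygous and 4, 1 and 0 heterozygous counts. These were 36.2, 17.8 and 20.4 CPM in homozygous and 8.81, 3.05 and 0 CPM in heterozygous cells. All 3 classes were under the 50-count limit, and the tailbud-like and cardiomyocyte-like intervals include 1. LPM-like cells had a ratio of 1.11 (0.262 to 5.33) on 6 and 4 counts, and unnamed 4 had 0 homozygous and 7 heterozygous counts.

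**Figure D4:**
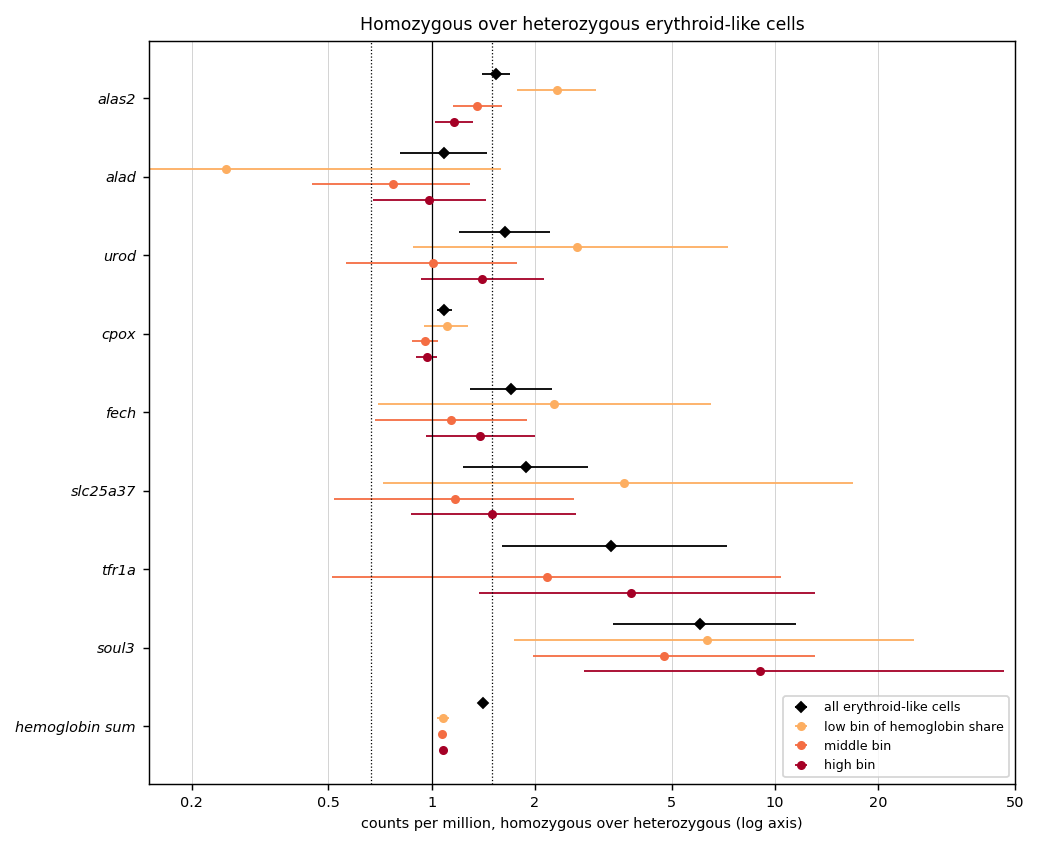
CPM in homozygous over heterozygous erythroid-like cells (x axis, log scale) for 8 of the 9 genes and the hemoglobin sum, over all cells (black diamonds) and in the low, middle and high bins of the hemoglobin share (orange to dark red), with exact 95% counting intervals and dotted lines at 1.5-fold either way. Alas2 lies at 2.32, 1.36 and 1.16 over the bins and cpox near 1, while soul3 lies between 4.75 and 9.02. Tfr1a in the low bin, with 0 homozygous counts, is not drawn, and the low bin interval of alad runs off the axis.

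Other measures moved with genotype in the same cells. Median depth was 18269 UMIs in homozygous and 14413 UMIs in heterozygous erythroid-like cells. The 5 immediate early genes examined, which respond to stress and dissociation, summed to 1988 CPM in homozygous and 953 CPM in heterozygous erythroid-like cells, with single cells from 0 to 5925 and from 0 to 3643 CPM. The 14 endothelial markers summed to 182 CPM in homozygous and 375 CPM in heterozygous cells, and 12 and 14 of the list were seen, with cdh5 and cldn5b at 0 in the homozygous cells. Of the 14, crip2 alone was higher in homozygous cells, at 52.6 CPM against 23.6 CPM in heterozygous cells. The 12 LPM markers summed to 344 CPM in homozygous and 156 CPM in heterozygous cells, and the 9 EPC markers, which include tal1 and lmo2, to 979 and 1518 CPM. The part of these measures in the genotype ratios was not tested.

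Of the pathway lists, 1 of 27 tested genes, beside 5.51% of all genes, was 1.5-fold or more higher in homozygous erythroid-like cells: ppox, the enzyme before fech, at 83.5 CPM in homozygous and 51.8 CPM in heterozygous cells, 1.61-fold (1.302 to 1.997). Another 4, beside 9.92% of all genes, were lower by 1.5-fold or more, so neither count stands clear of the background, with the intervals of alas1 and slc25a38b including 1: fam210b at 0.489 (0.406 to 0.586), alas1 at 0.531 (0.260 to 1.02), nfs1 at 0.567 (0.327 to 0.948) and slc25a38b at 0.580 (0.305 to 1.05). Uros (0.937) lay near 1, and tmem14ca had 1.303 (1.195 to 1.42).

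Summed over all kept cells, as a bulk sample would be read, 8 of the 9 members were 1.5-fold or more higher in homozygous cells, where 11.7% of 9471 genes were. Alas2 had 199 against 80.6 CPM, a ratio of 2.47 (2.29 to 2.67), and cpox 544 against 316 CPM, a ratio of 1.72 (1.65 to 1.80). From such sums alone a larger share of erythroid-like cells and a higher level within those cells cannot be told apart. Within erythroid-like cells the ratios were 1.54 for alas2 and 1.09 for cpox. In unnamed 1 all 5 members with at least 50 counts in both libraries together were higher by 1.5-fold, where 8.54% of 3745 genes were, among them alas2 at 2.11 (1.78 to 2.49), urod at 1.66 (0.917 to 2.97), cpox at 1.52 (1.38 to 1.68) and soul3 at 3.25 (1.79 to 6.01), and hemoglobin took 1.06% of the counts of its homozygous and 0.417% of those of its heterozygous cells.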

How the data were processed

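Cells were sorted GFP-positive from homozygous and heterozygous etv2ci32Gt; UAS:GFP embryos, 1 library each. The authors deposited raw UMI counts per gene and barcode, unfiltered; per the submitters' processing notes they were made with Cell Ranger 2.0.2 on GRCz10. Barcodes with at least 2500 UMIs, 201 to 3500 genes and no more than 5% mt- counts were kept (473 and 1608 cells; 7244035 and 19256969 UMIs in all barcodes). Kept cells were clustered with Seurat 5.3.0 (13 principal components, 30 neighbours, resolution 0.6, seed 20) without the 9 genes and 15 hemoglobin genes, and clusters were named where at least 3 markers of a class stood at 2-fold and no class had more. Even then a cluster stayed unnamed where another class had more markers among its leading genes. The same held for a cluster much shallower than its library with no marker of its best class among those genes. Counts were summed per class and library. Ratios have exact conditional binomial intervals, levels exact Poisson intervals and shares Clopper-Pearson intervals (scipy 1.17.1). Genes needed 50 counts to be called, at 2-fold between classes and 1.5-fold along hemoglobin share and between genotypes. The members and pathway genes with at least 50 erythroid-like counts could be named, and the 3 most alike genes of members with 200 counts. The members, lists and thresholds were chosen with earlier results of these data known. No doublet caller was run. A limit of 2 times the median depth removed no erythroid-like cell. Free RNA was estimated from barcodes with 1 to 100 UMIs, at 2.05% of a homozygous and 4.22% of a heterozygous cell's counts. No gene coordinates were used, since the reference tables are of another build. The interval step was tested on simulated Poisson counts, which hold no variation between cells or libraries. The values of 1 of the 9 genes and of its paralog are not reported here, although counts and medians over the genes include them.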

Additional observations from a re-analysis of the deposited data

Results flagged for a closer look

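Soul3 lay on opposite sides of 1 in the 2 genotypes when erythroid-like cells were set against all other cells: the ratio was 1.71 (1.17 to 2.47, 57 erythroid-like counts) in homozygous and 0.649 (0.349 to 1.13, 15 erythroid-like counts) in heterozygous embryos. The heterozygous interval includes 1, and the difference between the genotypes was not tested, since each is 1 library.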

How the results depend on the processing

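No paired analysis was possible because each genotype is 1 library, with no replicate number to share. The counts of members past the fold line were taken in each comparison under each alternative setting. Of these values, 82 kept within 1.5 times the main value and 8 left it. The 82 include values that could not move. Clustering at resolution 1.0 and the limit of 2 times the median depth gave the same erythroid-like cells, 123 and 252. The count of members lower by 1.5-fold between genotypes, none in the main setting, is also among these values. Thinned to 5000 UMIs, which puts low genes under the 50-count limit, erythroid-like enrichment was called for 3 homozygous members in place of 7, and the high bin for 3 homozygous (in place of 5) and 3 heterozygous members (in place of 6). In homozygous cells alas2 was gained there, at 1.79 in place of 1.38. The 5 members higher in homozygous erythroid-like cells became 2 after thinning and 1 each with cells taken by at least 1% hemoglobin counts, with reweighted bins, without the low bin (added once the values were known), and at 2-fold. Slc25a37 between genotypes turned to 0.583 after thinning. Of the single-gene values, 512 under an alternative stayed within the counting interval, 60 left it without a called ratio turning, and 1 turned. The 512 also hold the values of the settings that left the erythroid-like cells unchanged. Why the values moved was not tested, apart from the lost counts under thinning, which do not cover every loss. Between genotypes, thinned fech kept more than 50 counts and fell under 1.5-fold by its ratio. It had 0, 9 and 19 homozygous and 6, 9 and 23 heterozygous counts in the low, middle and high bins. Depth limits tfr1a, slc25a37 and soul3, with 12 to 57 erythroid-like counts per library.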

Other observations

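Alas2 with hemoglobin at the level of other classes was read in a group of homozygous cells. The 63 homozygous cardiomyocyte-like cells had 40 alas2 counts in 17 cells (81.5 CPM, 58.2 to 111.0), where free RNA would give 1.89 to 2.04, beside 3 cpox counts and 1 fech count. The 20 heterozygous cardiomyocyte-like cells had 0, which allows up to 27.7 CPM by the exact interval. Hemoglobin took 0.0478% of the counts of the 17 cells and 0.0483% of those of the other 46. When the homozygous library was clustered on its own, again without the 9 genes, 32 of the 63 cells fell in a 33-cell EPC-like cluster, and all 40 counts lay in those 32 cells (132 CPM, 94.2 to 179.6). There the progenitor marker lmo2 had 2170 CPM, against 70.5 CPM in the 30 of the 63 cells that fell in a cluster without a name, and tal1 had 973 against 5.42 CPM. That unnamed cluster of 156 cells matched several lists at once, unlike unnamed 1 and unnamed 4. All 10 epidermal, all 10 cardiomyocyte and all 10 tailbud markers were enriched in it, and 9 of 10 myocyte markers. Sox7 and egfl7, picked after their values were seen, had 313 and 307 CPM, with no count in the 30 cells. The cardiac factor nkx2.7 did not differ in this way, at 251 CPM in the 32 and 255 CPM in the 30 cells. Beside 6 of 9 EPC markers, the EPC-like cluster was enriched for 6 of 14 endothelial and 5 of 10 cardiomyocyte markers. It was also enriched for 4 of 10 macrophage and 3 of 12 LPM markers. Gata1a had 7 counts in the 32 cells, and the cardiomyocyte markers summed to 1032 CPM there and to 11982 CPM in the 30. For the 32 cells the name cardiomyocyte-like therefore depends on how the cells were clustered, and no name is given to them beyond those rules.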
